A study of Gallus gallus with 24 samples.

Results

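HELZ2 was followed in chicken fibroblasts together with 4 other genes of antiviral reputation, ZNFX1, PARP12, PARP9 and PARP14. These 5 genes were chosen by name from the 25466 genes in the count tables. HELZ2 was selected on its level at 6 h in these same libraries, as the strongest riser among interferon-linked genes, and the other 4 were set beside it as antiviral helicase and PARP genes. All 5 passed the filter on low counts, which kept 13000 genes. Their 6 h values are therefore given as a description, with no test. The comparison of knockdown with mock cells is not the one that chose them and is tested, though it shares libraries with it.

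The cells were DF1, an immortalised line of chicken embryonic fibroblasts. Messenger RNA was sequenced from 24 libraries in 8 groups of 3. Mock cells, with a wild-type genotype label, and IRF9 knockdown cells were treated with poly(I:C), a synthetic mimic of viral double-stranded RNA, and sampled at 4 times, 0 h, 30 min, 1 h and 6 h. Every library carries the poly(I:C) label, at 0 h too, and no untreated cells at the later times were analysed here, so the effect of poly(I:C) cannot be told apart from that of time in culture. The sources used here do not give the method of the knockdown, whether its cells were 1 clone, or the route of poly(I:C) delivery. The labels do not say that replicates were separate cultures, so the p-values rest on differences between libraries that may be technical.

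HELZ2 encodes a large protein with a pair of superfamily 1 helicase domains. In mammals it is induced by interferon and also acts as a coactivator of nuclear receptors, PPAR alpha and PPAR gamma among them. ZNFX1 encodes another superfamily 1 helicase, with zinc fingers, which in mammals binds double-stranded RNA at mitochondria and promotes the early antiviral response. PARP9, PARP12 and PARP14 belong to the PARP family, whose enzymes attach ADP-ribose to proteins. PARP12 carries CCCH zinc fingers and restricts several RNA viruses in mammals. PARP9 and PARP14 carry macrodomains, which read or remove ADP-ribose, and PARP9 works in a complex with the ubiquitin ligase DTX3L. In mammals all 5 are counted among the interferon-stimulated genes, a class that IRF9 helps to switch on.

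All 5 genes are protein-coding in the supplied GRCg7b annotation, and the following positions are gene spans. HELZ2 (gene 419265) spans 10074766 to 10097361 on chromosome 20, with 3 annotated transcripts. ZNFX1 (gene 419218) lies on the same chromosome, from 7058760 to 7071091. IRF9 is also on chromosome 20, from 10406021 to 10408887, separated from HELZ2 by 308659 bases. PARP12 (gene 418100) spans 55777638 to 55794516 on chromosome 1. PARP14 (gene 101747378, 27835892 to 27871650), DTX3L (27874095 to 27879726) and PARP9 (gene 424269, 27879519 to 27887997) follow each other on chromosome 7. The spans of PARP9 and DTX3L overlap by 208 bases and those of PARP9 and FAIM by 3220. Reads in those overlaps are uncertain, because the sources used here do not say whether counting used the strand.

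Counts in genes came to 12174030 to 19974065 per library. At that depth 3 counts correspond to 0.150 to 0.259 CPM (CPM, counts scaled to library size with TMM factors), and the lowest count of any of the 5 genes in any library was 92. IRF9 itself was at 25.0 to 45.2 CPM in the 12 mock libraries and at 12.2 to 23.2 CPM in the 12 knockdown libraries, so the 2 genotypes did not overlap. Averaged over the 4 times it was lower by a log2 difference of -0.79 (SE 0.09, edgeR adjusted p = 7.67e-05), a fold of 0.580. This fit counts same-numbered libraries as independent, so its SE and p-value may overstate the precision. The reference table gives IRF10 as another symbol of this gene, and the sources used here do not say which name the knockdown was designed for. All 12 fibroblast markers reached 1 CPM, with sums of 5370 to 7600 CPM. Muscle markers summed to at most 1.51 CPM, and the epithelial genes KRT8, KRT18 and CLDN4 had no counts. The 4 mock replicate 2 libraries stood apart on the first principal component of the 500 most variable genes, at 14.6 to 26.2 against -14.2 to 8.81 for the others.

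HELZ2 was low and flat for the first hour and high at 6 h in both genotypes. In mock cells its level was 18.9, 12.0 and 14.1 CPM at 0 h, 15.7, 14.5 and 13.8 CPM at 30 min, and 22.2, 11.3 and 11.3 CPM at 1 h, and it reached 133, 142 and 157 CPM at 6 h (replicates 1, 2 and 3). In knockdown cells its level was 20.1, 20.5 and 15.5 CPM at 0 h, 15.2, 21.6 and 13.0 CPM at 30 min, and 16.1, 18.8 and 12.8 CPM at 1 h, and it reached 147, 137 and 131 CPM at 6 h. Every 6 h library lay above every earlier one, and the libraries of 0 h, 30 min and 1 h overlapped. The 18 earlier libraries had a median of 15.4 CPM and the 6 libraries of 6 h a median of 140 CPM, and the lowest 6 h library stood 5.88-fold above the highest earlier one.

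The group means of HELZ2 at 6 h were 144 ± 11.7 CPM in mock and 138 ± 8.29 CPM in knockdown cells (SD, n = 3). The 0 h means were 15.0 ± 3.56 CPM and 18.7 ± 2.79 CPM (SD, n = 3). The ratio of these means was 9.61 in mock and 7.39 in knockdown cells. The fitted log2 change was 3.27 (SE 0.22, 95% interval 2.81 to 3.73) in mock cells, rank 7 of the 13000 genes, and 2.89 (SE 0.22, interval 2.44 to 3.33) in knockdown cells, rank 8. Of all genes tested, 2.17% were called changed at 6 h in mock cells, 252 higher and 30 lower. In knockdown cells 1.72% were called, 186 higher and 38 lower. As HELZ2 was chosen on this change, nothing is read from these shares or from its rank. The intervals of its 6 h change do not allow for that choice and are a description only. The mock count rose from 282 to 699 genes with a replicate block, and the fitted change of HELZ2 stayed between 3.14 and 3.31 under the other settings. In bulk RNA, fewer cells of a type and less RNA per cell cannot be told apart.

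**Figure D1:**
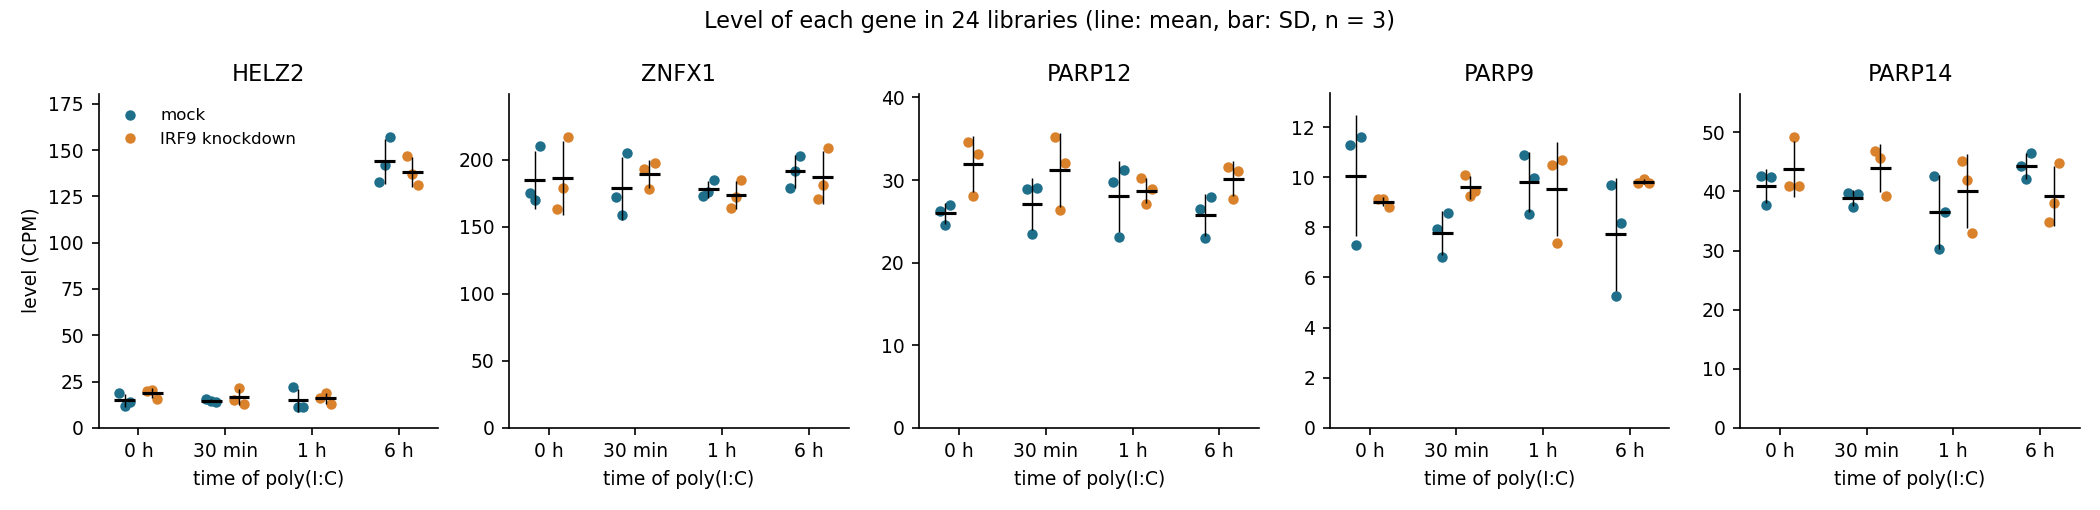
Level of HELZ2, ZNFX1, PARP12, PARP9 and PARP14 (CPM, linear axis from 0, a separate scale for each gene) at the 4 times of poly(I:C) treatment, with 1 point per library, a line at the mean and a bar for the SD of 3 libraries, for mock and IRF9 knockdown cells. HELZ2 stands at 131 to 157 CPM at 6 h and at 11.3 to 22.2 CPM before. In the other 4 genes the highest group mean is 1.1 to 1.3 times the lowest. In knockdown cells PARP9 stands at 8.82 to 9.13 CPM at 0 h, 9.24 to 10.1 CPM at 30 min and 9.77 to 9.93 CPM at 6 h.

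Markers of other cell types were compared at the same times. The summed level of the 9 leukocyte markers was 26.9 to 29.6 CPM at 0 h and 39.5 to 49.4 CPM at 6 h in mock cells, and 27.2 to 32.8 and 42.5 to 44.5 CPM in knockdown cells. Of these 9 genes 5 reached 1 CPM. None of the 9 was without a count, though CD79B had 1 count in all. CD3E, a T cell receptor component, rose in both genotypes. Its 0 h and 6 h means in mock cells were 10.7 ± 1.22 and 23.7 ± 2.77 CPM (SD, n = 3), a log2 change of 1.16 (SE 0.17, edgeR adjusted p = 0.000105). PTPRC, the pan-leukocyte gene, was at 1.48 ± 0.362 and 2.44 ± 0.143 CPM and was not called (adjusted p = 0.517). The 7 endothelial markers, of which 2 reached 1 CPM, summed to 187 to 223 CPM at 0 h and 214 to 307 CPM at 6 h in mock cells. In knockdown cells they summed to 179 to 211 and 206 to 243 CPM. The 8 epithelial markers, of which 1 reached 1 CPM, summed to 8.60 to 9.68 CPM at 0 h and 12.4 to 13.0 CPM at 6 h in knockdown cells. Their sums in mock cells were 8.61 to 9.1 and 9.06 to 12.7 CPM. The 9 neural markers, of which 3 reached 1 CPM, summed to 283 to 330 and 226 to 324 CPM in mock cells. Neural sums in knockdown cells were 328 to 339 and 257 to 347 CPM. Fibroblast marker sums overlapped between 0 h and 6 h in mock cells, at 6060 to 6980 and 5930 to 7010 CPM. They also overlapped in knockdown cells, at 5980 to 6300 and 5370 to 6290 CPM. The part of these markers in the level of HELZ2 was not tested.

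ZNFX1, the helicase set beside HELZ2, had nearly the same level at all times. Its level in mock cells was 175, 170 and 210 CPM at 0 h and 179, 192 and 203 CPM at 6 h. In knockdown cells it was 163, 179 and 217 CPM at 0 h and 171, 181 and 209 CPM at 6 h. The 0 h and 6 h libraries overlapped in both genotypes. The log2 change at 6 h was 0.05 in mock and 0.01 in knockdown cells (SE 0.11 each). Over all 8 groups the highest mean was 1.10 times the lowest. CPM values are not corrected for transcript length, so levels are compared within a gene and not between genes.

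PARP12, the zinc finger PARP, was at 26.3, 24.6 and 27.0 CPM at 0 h and 26.5, 23.0 and 27.9 CPM at 6 h in mock cells. In knockdown cells it was at 34.6, 28.1 and 33.1 CPM at 0 h and 31.6, 27.7 and 31.1 CPM at 6 h. Within each genotype the times overlapped, and the log2 change at 6 h was -0.01 in mock and -0.08 in knockdown cells (SE 0.13 each).

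PARP14, the large macrodomain PARP, was at 42.6, 37.7 and 42.5 CPM at 0 h and 44.3, 42.1 and 46.5 CPM at 6 h in mock cells. In knockdown cells it was at 41.0, 49.2 and 41.0 CPM at 0 h and 34.8, 38.0 and 44.8 CPM at 6 h. The libraries of the 2 times overlapped in both genotypes. The log2 change was 0.11 in mock and -0.16 in knockdown cells (SE 0.13 each).

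PARP9, the partner of DTX3L, was at 11.3, 7.29 and 11.6 CPM at 0 h and 9.70, 5.26 and 8.19 CPM at 6 h in mock cells. In knockdown cells it was at 9.13, 9.12 and 8.82 CPM at 0 h and 9.77, 9.93 and 9.77 CPM at 6 h. The mock libraries overlapped, and the 3 knockdown libraries of 6 h all lay above those of 0 h, with means of 9.82 and 9.03 CPM. The share of all genes that separate in this way was not counted. The log2 change was -0.39 in mock and 0.12 in knockdown cells (SE 0.20 each). DTX3L itself had group means of 54.5 to 64.0 CPM, with a 6 h change of 0.21 in mock cells (SE 0.28, edgeR adjusted p = 0.926). The ratio of the highest to the lowest group mean was 1.30 for PARP9, 1.24 for PARP12 and 1.21 for PARP14, against 9.83 for HELZ2.

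The first hour was tested in the same fit, with the 0 h libraries shared with the change that chose HELZ2. edgeR called none of the 5 genes at 30 min or 1 h in either genotype. For HELZ2 the log2 change in mock cells was -0.03 at 30 min (SE 0.22, interval -0.49 to 0.43, adjusted p = 0.997) and -0.00 at 1 h (interval -0.46 to 0.46, adjusted p = 1). In knockdown cells it was -0.18 at 30 min (interval -0.63 to 0.27, adjusted p = 0.999) and -0.23 at 1 h (interval -0.68 to 0.21, adjusted p = 1). The widest of the early differences was that of PARP9 at 30 min in mock cells, a log2 of -0.36 (interval -0.78 to 0.06, adjusted p = 0.986).

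Few genes of any kind were called in that hour. The share was 0% at 30 min in both genotypes, 0.0154% at 1 h in mock cells and 0.0231% at 1 h in knockdown cells. From 30 min to 1 h, a comparison without the 0 h libraries, it was 0% in mock cells and 0.00769% in knockdown cells. Counts at an unadjusted p under 0.05 were 646 and 305 in mock cells at 30 min and 1 h, 1317 from 30 min to 1 h, and 228 in knockdown cells at 30 min. None of the 5 genes was below that mark in these comparisons, and DESeq2 and limma voom also called none of them. The mock count from 30 min to 1 h was 239 genes with a replicate block and 33 with DESeq2, none of them among the 5. Without mock 30 min replicate 3 it was 412, again with none of the 5.

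Knockdown against mock cells was not the comparison that chose the genes, though its 0 h and 6 h libraries are those of the change that chose HELZ2. HELZ2 was not called at any time. Its level at 6 h, given above by library, ran from 133 to 157 CPM in mock and from 131 to 147 CPM in knockdown cells, and the 2 genotypes overlapped at every time. The log2 difference, knockdown minus mock, was 0.33 at 0 h (SE 0.22, interval -0.12 to 0.77, adjusted p = 0.997) and -0.06 at 6 h (SE 0.20, interval -0.47 to 0.35, adjusted p = 0.954). Averaged over the 4 times it was 0.13 (SE 0.11, interval -0.09 to 0.36, adjusted p = 0.578). As a fold, the 6 h interval runs from 0.724 to 1.27, so losses to a fold under 0.724 lie outside it and smaller losses do not. At 6 h IRF9 itself was at a fold of 0.661, with an interval of 0.514 to 0.851 that overlaps the interval of HELZ2.

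The 4 other genes were not called in knockdown cells either. ZNFX1 differed by an average log2 of 0.01 (SE 0.06, interval -0.11 to 0.12, adjusted p = 0.970). PARP14 differed by 0.06 (SE 0.07, interval -0.08 to 0.19, adjusted p = 0.699). PARP9 differed by 0.12 (SE 0.10, interval -0.09 to 0.32, adjusted p = 0.605). PARP12 had the largest average difference, 0.19 (SE 0.07, interval 0.05 to 0.33), with an adjusted p of 0.462 over all genes. The fit of these averages has no replicate term, though same-numbered mock libraries deviated together. The SE, interval and p-value of each average, those of HELZ2 and IRF9 included, may therefore overstate the precision. At 0 h all 3 knockdown libraries of PARP12 lay above all 3 mock libraries, and at the other times the genotypes overlapped. Knockdown libraries of PARP9 lay above mock at 30 min (9.24 to 10.1 against 6.83 to 8.58 CPM) and at 6 h (9.77 to 9.93 against 5.26 to 9.7 CPM). How many of all genes separate in this way was not counted, so nothing is read from it. Without the 4 mock replicate 2 libraries, in which PARP12 was lowest at every time, its average difference was 0.11 (adjusted p = 0.999).

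**Figure D2:**
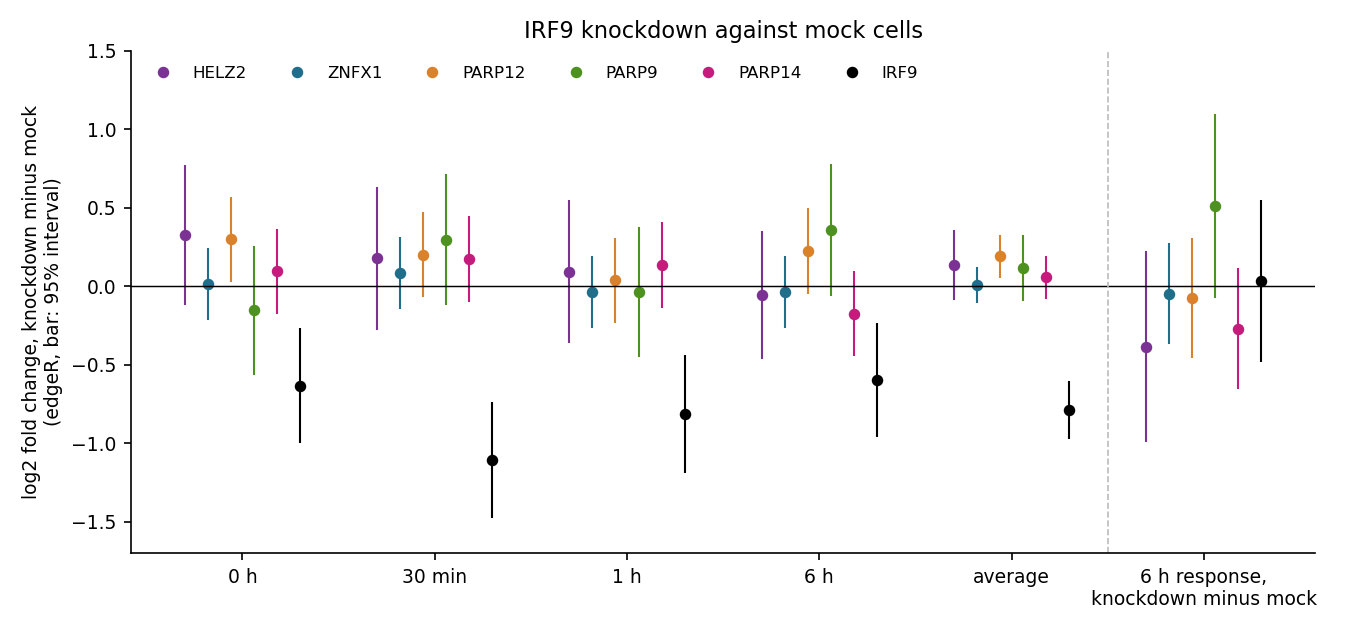
Log2 difference between knockdown and mock cells (knockdown minus mock) for HELZ2, ZNFX1, PARP12, PARP9, PARP14 and IRF9 at each time, averaged over the 4 times and, at the right, for the 6 h change, with points at the fitted value and bars for the 95% interval of the edgeR fit. The intervals of HELZ2 include 0 at every time, and the average interval of IRF9 lies between -0.97 and -0.60.

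The share of all genes called in knockdown against mock cells was 0% at 0 h, 0.00769% at 30 min, 0% at 1 h and 0% at 6 h, and 0.00769% for the average. The gene called at 30 min and in the average was IRF9. At an unadjusted p under 0.05 the counts were 196, 1732, 302, 799 and 1398 in the same order. Of the 5 genes only PARP12 was below that mark, at 0 h and in the average. DESeq2 and limma voom called none of the 5 in these comparisons.

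The 6 h change was then compared between the genotypes. HELZ2 was chosen on that change, so its value here is not independent of the choice. For HELZ2 the change in knockdown cells minus that in mock cells was a log2 of -0.38 (SE 0.29, interval -0.99 to 0.22, edgeR adjusted p = 1), a fold of 0.766 with an interval of 0.503 to 1.17. The ratio of means was smaller in knockdown cells, 7.39 against 9.61, and the interval of the fitted difference includes 0. The mean level in knockdown cells was 125% of that in mock cells at 0 h and 96.1% at 6 h. The same difference was -0.05 for ZNFX1 (SE 0.16), -0.07 for PARP12 (SE 0.19) and -0.27 for PARP14 (SE 0.19). For PARP9 it was 0.51 (SE 0.28, interval -0.08 to 1.10, adjusted p = 1). The share of all genes called was 0% for this interaction at 30 min, at 1 h and at 6 h. Genes with an unadjusted p under 0.05 numbered 750, 137 and 204 there. None of the 5 genes was called by edgeR, DESeq2 or limma voom, and none was below the unadjusted mark.

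The families of the 5 genes were described next, with the 5 left out. Of all 13000 genes, 2.17% were called at 6 h in mock and 1.72% in knockdown cells. An unadjusted p under 0.05 (edgeR) was reached by 1298 genes in mock and 1370 in knockdown cells. At such shares 0 calls in a short list says little about it. Of the other 11 PARP genes tested, edgeR called 0 at 6 h in either genotype, with 1 gene in mock and 2 in knockdown cells at an unadjusted p under 0.05. Their log2 changes in mock cells ran from -0.41 for PARP6 to 0.37 for PARP16, with a median of 0.01 against 0.00 for all genes. ZC3HAV1, the zinc finger antiviral protein, which has an inactive PARP domain, had the lowest value in knockdown cells, -0.44 (SE 0.16, adjusted p = 0.266). It was called lower there when only the groups compared were fitted. PARP1, the nuclear enzyme of DNA repair, had 0 h and 6 h means of 186 ± 14.9 and 187 ± 19.4 CPM in mock cells (SD, n = 3). Of 12 genes that partner, read or remove ADP-ribose, 0 were called, with 1 in mock and 0 in knockdown cells at an unadjusted p under 0.05, and their mock changes ran from -0.38 for APLF to 0.23 for OARD1. DESeq2 and limma voom also called 0 of both lists.

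HELZ2 shares its helicase fold with other superfamily 1 genes. Of the other 11 tested, edgeR called 0 at 6 h in either genotype, with 0 at an unadjusted p under 0.05 and 0 by DESeq2 and limma voom, and mock changes ran from -0.38 for PIF1 to 0.28 for ZGRF1. Of 16 RNA sensing helicases edgeR called 0, with 3 in mock and 2 in knockdown cells at an unadjusted p under 0.05. As 2.17% of all genes were called in mock and 1.72% in knockdown cells, 0 calls says little about either short list. IFIH1, the sensor MDA5 of long double-stranded RNA, had 0 h and 6 h means of 11.1 ± 1.54 and 11.1 ± 1.82 CPM in mock cells (SD, n = 3). DDX21, a nucleolar helicase, had the highest change, 0.26 in mock cells (SE 0.07, adjusted p = 0.0651), and DESeq2, limma voom and the fit with a replicate block each called it there.

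Among 38 other interferon-stimulated genes tested, 3 rose and 1 fell at 6 h in mock cells, and 3 rose in knockdown cells, where 2.17% and 1.72% of all genes were called. The median change was -0.08 in mock and 0.02 in knockdown cells, against 0.00 and 0.01 for all genes. CASP8, an initiator caspase, rose from 103 ± 3.92 to 134 ± 16.3 CPM in mock cells (SD, n = 3, adjusted p = 0.0198) and by a log2 of 0.36 in knockdown cells (adjusted p = 0.0341). NLRC5, an activator of MHC class I genes in mammals, rose from 8.66 ± 1.88 to 18.2 ± 2.63 CPM in mock cells (SD, n = 3), a log2 of 1.07 (SE 0.26, adjusted p = 0.0269). IFIT5, an RNA-binding antiviral protein, rose from 2.50 ± 0.524 to 6.79 ± 0.671 CPM in knockdown cells (SD, n = 3, adjusted p = 0.00624), and its log2 change in mock cells was 1.02 (adjusted p = 0.0970). The fit with a replicate block and DESeq2 each called it in mock cells as well. NLRC5 in mock and IFIT5 in knockdown cells had the list's next highest change below HELZ2. TLR3, the endosomal receptor of double-stranded RNA, fell from 6.27 ± 0.340 to 2.55 ± 1.48 CPM in mock cells (SD, n = 3, adjusted p = 0.00797). In knockdown cells it changed by a log2 of -0.63 and was not called. NLRC5 was not called in knockdown cells in the main fit, and was called there when only the groups compared were fitted.

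Some of these calls were lost when 1 library was left out or the setting was changed. In mock cells the call of CASP8 was lost without replicate 2 or 3 of 0 h or of 6 h. That of NLRC5 was lost without replicate 2 or 3 of 0 h or replicate 1 or 2 of 6 h, and that of TLR3 without replicate 1 or 3 of 6 h. Without the 4 mock replicate 2 libraries CASP8 and NLRC5 were not called in mock cells. With only the groups compared fitted, CASP8 and TLR3 were not called there. Without the low-count filter CASP8 was called in neither genotype. In knockdown cells the call of IFIT5 was lost without replicate 3 of 0 h, and that of CASP8 held in 1 of the 6 fits that left out a library. The call of IFI6 held in 1 of the 6 such fits in mock cells, that without replicate 3 of 6 h, and was lost there with limma voom and in the fit of the compared groups alone. In knockdown cells it was lost without replicate 1 or 2 of 0 h and with DESeq2. In mock cells the number of risers on this list fell from 3 to as few as 0 when 1 library was left out. For HELZ2 the fits that left out a library gave a log2 change of 3.13 to 3.47 in mock and 2.77 to 2.95 in knockdown cells.

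IFI6, a small interferon-induced membrane protein gene, had a fitted log2 change above that of HELZ2, 3.33 in mock and 3.43 in knockdown cells. Its counts at 0 h in mock cells were 1, 3 and 1, against 20, 16 and 14 at 6 h. In knockdown cells they were 6, 4 and 5 at 0 h, against 33, 47 and 71 at 6 h. The mock 0 h counts are at or under the floor of 3, so the mock change has no firm size. HELZ2 was the strongest riser among the interferon-linked genes only with IFI6 set aside. MX1 and RSAD2, which are strongly interferon-induced genes in other settings, had too few counts for a test, 19 for MX1 and 4 for RSAD2 in the 24 libraries together.

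**Figure D3:**
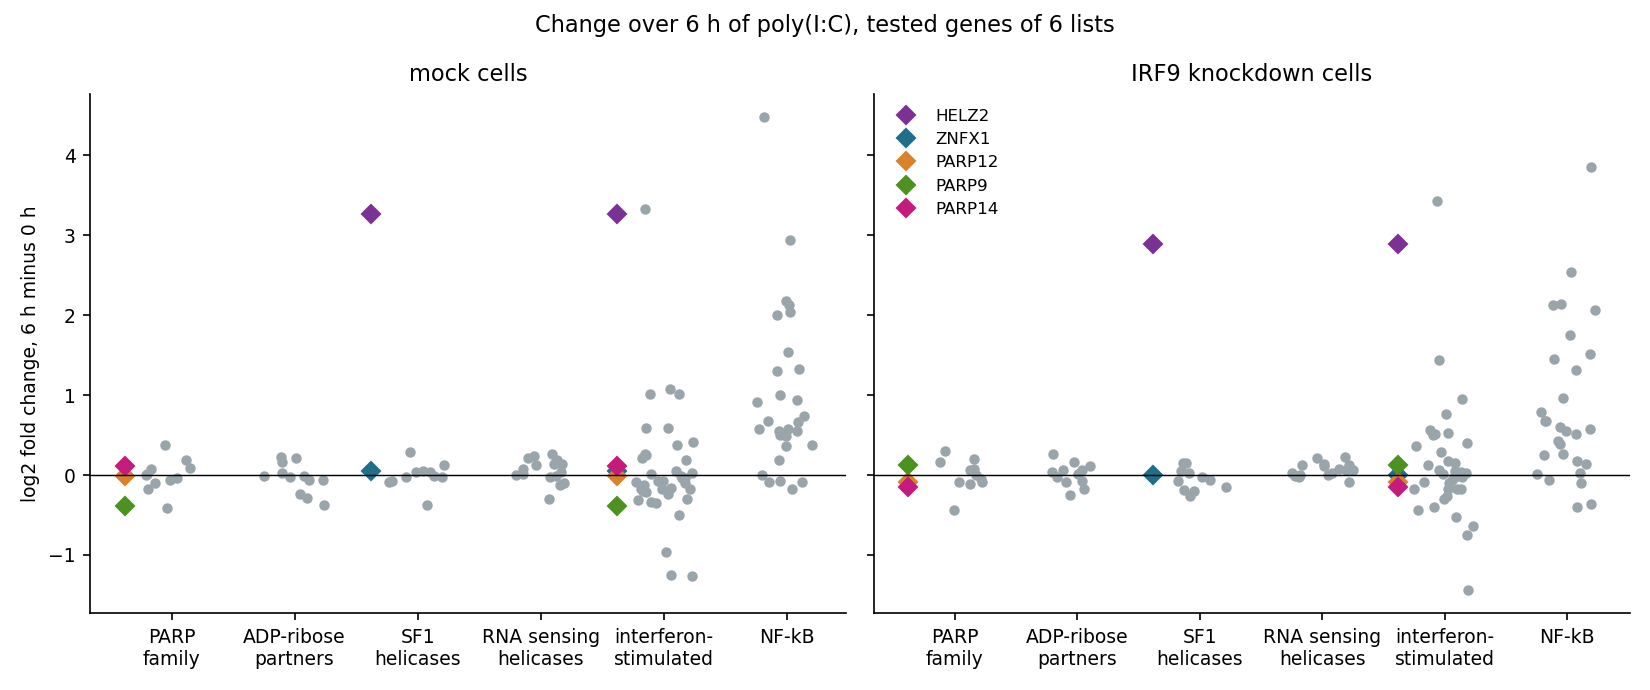
Log2 change at 6 h against 0 h for every tested gene of 6 lists (1 grey point per gene) in mock and IRF9 knockdown cells, with HELZ2, ZNFX1, PARP12, PARP9 and PARP14 as coloured diamonds. PARP genes and helicases other than HELZ2 lie within -0.44 and 0.37, and many NF-kB genes lie above 0, up to 4.48 for IL8L1 in mock cells.

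Many NF-kB targets and regulators rose at 6 h. Of 29 tested, 18 rose in mock and 15 in knockdown cells and none fell, where 2.17% and 1.72% of all genes were called, and the others did not pass. The list's median change was 0.66 in mock and 0.57 in knockdown cells. NFKBIA, the inhibitor of NF-kB, rose from 121 ± 7.71 to 303 ± 23.8 CPM in mock cells (SD, n = 3, adjusted p = 6.88e-09). The chemokine gene CCL4 rose by a log2 of 2.12 (SE 0.17, adjusted p = 1.33e-08) and TNIP1, an NF-kB inhibitor that binds ubiquitin, by 2.04 (SE 0.17, adjusted p = 2.60e-08). Of 23 interferon signalling genes, TRAF3 and IFNGR1 rose and TLR3 fell in mock cells, and TRAF3 rose in knockdown cells. STAT3 was called lower in both genotypes by DESeq2 and with a replicate block, and in mock cells by limma voom. When only the groups compared were fitted, STAT3 was called lower and IRF1 and IRF7 higher in knockdown cells. IRF7 was also called higher there with a replicate block and without the 4 mock replicate 2 libraries. The call of IFNGR1 was lost without mock 0 h replicate 2, without the 4 mock replicate 2 libraries, and when only the groups compared were fitted. STAT2, the partner of IRF9, was at 11.7 ± 1.48 and 8.29 ± 0.906 CPM at 0 h and 6 h in mock cells (SD, n = 3, adjusted p = 0.353). Of all these lists only IRF9 was called in knockdown against mock cells averaged over time.

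The nuclear receptors with which HELZ2 works in mammals were examined as well. Of 16 receptor partners tested, THRB, a thyroid hormone receptor, rose in both genotypes, by a log2 of 0.44 in mock (SE 0.11, adjusted p = 0.0276) and 0.43 in knockdown cells (SE 0.11, adjusted p = 0.0397). Its call was lost in mock cells without the 4 mock replicate 2 libraries or when only the groups compared were fitted, and with DESeq2 size factors in knockdown cells, and held in 3 and 1 of the 6 fits that left out a library. In knockdown cells the list's median change was -0.24, against 0.01 for all genes, and 7 of the 16 had an unadjusted p under 0.05, against 3 in mock cells. Of all 13000 genes 1370 in knockdown and 1298 in mock cells were below that mark, and 1.72% and 2.17% were called. In knockdown cells EP300, NCOA3 and THRA were called lower when only the groups compared were fitted, and CREBBP with a replicate block. PPARA had 0 h and 6 h means of 11.8 ± 1.77 and 12.7 ± 0.639 CPM in mock cells (SD, n = 3). PPARG changed by 0.53 in mock cells without being called (SE 0.29, adjusted p = 0.598). Of 12 PPAR target genes, ANGPTL4, a secreted inhibitor of lipoprotein lipase, rose by 1.67 in mock (SE 0.24, adjusted p = 7.64e-05) and 1.72 in knockdown cells (adjusted p = 6.32e-05). SCD, a fatty acid desaturase, rose in knockdown cells by 0.73 (SE 0.18, adjusted p = 0.0388), a call that limma voom did not make and that held in 1 of the 6 fits that left out a library.

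The genes whose log2 CPM followed that of HELZ2 most closely over the 24 libraries were TBX3, K123, STARD4, HMGCS1, MSMO1, CYP51A1, PIK3R3 and NSDHL, with Pearson correlations of 0.963 to 0.972. HMGCS1, MSMO1, CYP51A1 and NSDHL encode enzymes of cholesterol synthesis, and STARD4 a cholesterol transfer protein. HMGCS1 had means of 159 and 500 CPM at 0 h and 6 h in mock cells, and MSMO1 of 197 and 615 CPM. The libraries fall into 2 clusters, 6 h and earlier, which carry these correlations. Among the 6 libraries of 6 h they ran from -0.51 to 0.46, and among the 18 earlier libraries from 0.32 to 0.61. By rank correlation the same 8 genes took ranks 21 to 209, and over the 8 group means ranks 2 to 40. The points share the time course and the library scaling, and no p is given.

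Among the other 4 genes the closest pattern was that of ZNFX1 and DTX3L, with a Pearson correlation of 0.878 over 24 libraries, followed by CCDC117 (0.788) and POSTN (0.776) with ZNFX1. PARP12 was closest to DTD1 (0.803), ISCA1 and FOXJ1, PARP9 to FBXL22 (0.795), HRH3 and UGP2, and PARP14 to KAT6A (0.795), ZNF143 and BTAF1. Over the 8 group means these partners took ranks 16 to 1714, with DTX3L at rank 1106 for ZNFX1 (correlation 0.55). By rank correlation over the libraries they took ranks 1 to 127.5, with DTX3L at rank 1 for ZNFX1. Among the 5 genes themselves, deviations from group means correlated at 0.606 for HELZ2 with PARP14, at 0.559 for PARP12 with PARP9 and at -0.369 for HELZ2 with ZNFX1, over 24 libraries. These correlations are descriptions, since the libraries share scaling and, possibly, handling.

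ZNFX1 and DTX3L shared a replicate pattern. Replicate 3 was the highest in 8 of 8 groups for both, at 185 to 217 CPM for ZNFX1, where replicates 1 and 2 reached at most 193 CPM. For DTX3L replicate 3 was at 67.3 to 84.8 CPM and the others at no more than 63.5 CPM. PARP12 was lowest in replicate 2 in 8 of 8 groups, and PARP9 and PARP14 were lowest in replicate 2 in all 4 mock groups. For HELZ2 replicate 3 was lowest in all 4 knockdown groups and in 1 mock group, and no replicate was highest in more than 4 of the 8 groups. The sources used here do not say what the replicate numbers stand for, and the source of the pattern was not tested.

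**Figure D4:**
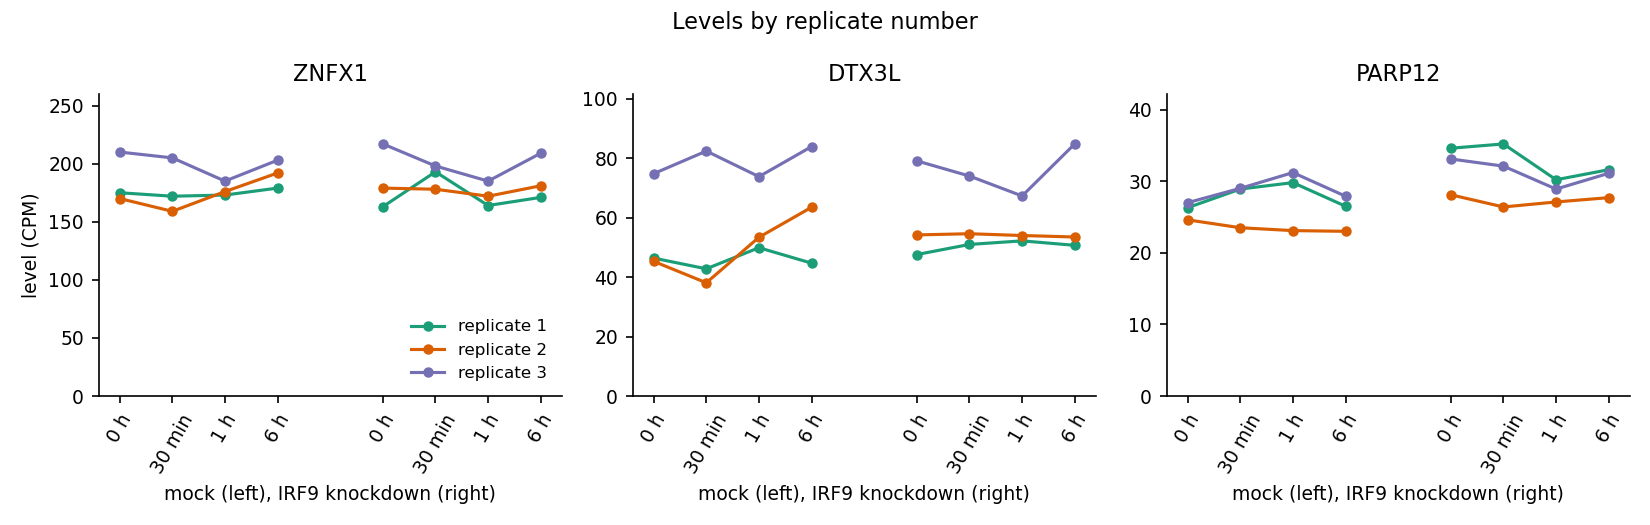
Level (CPM, linear axis from 0) of ZNFX1, DTX3L and PARP12 by group, with lines that join libraries of the same replicate number within a genotype. Replicate 3 is the highest point in every group for ZNFX1 and DTX3L, and replicate 2 is the lowest in every group for PARP12.

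Genes next to HELZ2 on chromosome 20 were compared with it. Within 100 kb lie 19 annotated genes, of which 16 are protein-coding and 12 of all kinds were tested. edgeR called 0 of the 12 at 6 h in either genotype, with 1 in mock and 0 in knockdown cells at an unadjusted p under 0.05 and 0 by DESeq2 and limma voom. As 2.17% of all genes were called in mock and 1.72% in knockdown cells, 0 calls among so few neighbours, here and below, says little. GMEB2, which encodes a DNA-binding protein, lies 3154 bases away and was at 62.6 and 61.9 CPM at 0 h and 6 h in mock cells, a log2 change of -0.01 (adjusted p = 0.997). STK35, a kinase gene 9218 bases from HELZ2, changed by 0.14 (adjusted p = 0.905), and RTEL1, a telomere helicase gene, by 0.03 (adjusted p = 0.978). The highest change was that of RAD21L1, a meiotic cohesin gene, 1.71 in mock cells from 0.284 to 0.946 CPM (adjusted p = 0.334), and it was 0.17 in knockdown cells. The nearest gene, C20orf195, 562 bases away, had 20 counts in all and was not tested. With PARP9 and PARP14 themselves left out, none of the tested neighbours of the other 4 genes was called at 6 h or had an unadjusted p under 0.05, of 4 for ZNFX1, 1 for PARP12, 5 for PARP9 and 7 for PARP14.

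**Figure D5:**
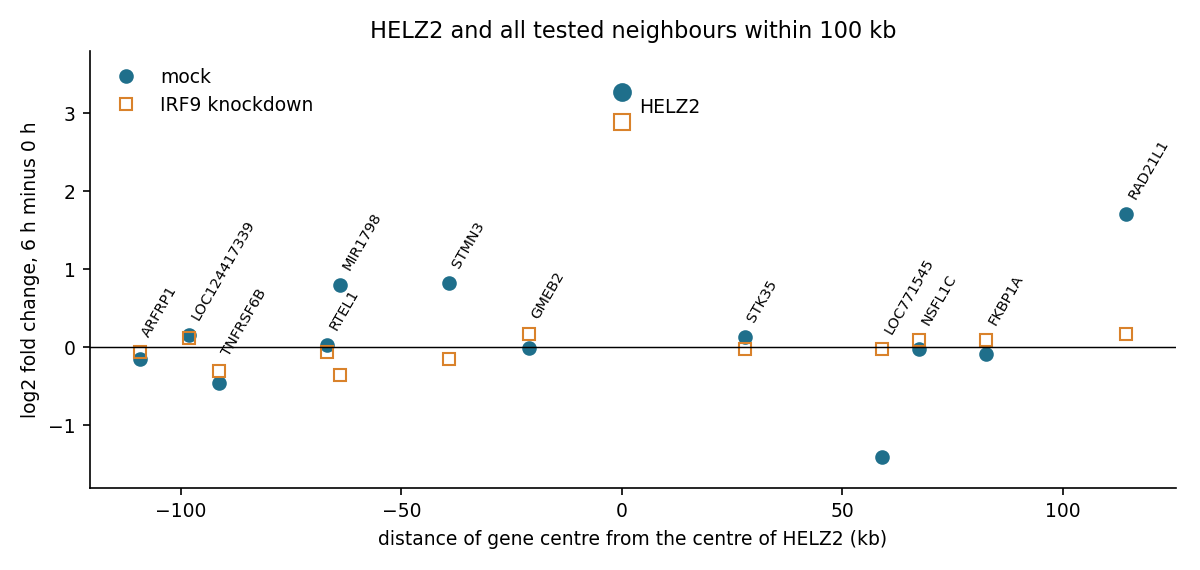
Log2 change at 6 h against 0 h of the 12 tested genes within 100 kb of HELZ2, by distance between gene centres (kb), in mock and IRF9 knockdown cells. HELZ2 stands at 3.27 and 2.89, and GMEB2, STK35, RTEL1, NSFL1C, FKBP1A and ARFRP1 lie between -0.15 and 0.18. LOC771545, at 1.13 and 0.459 CPM at 0 h and 6 h in mock cells, has the lowest point, -1.41, and RAD21L1 the highest of the neighbours, 1.71. LOC771545 was not called (edgeR adjusted p = 0.618).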

How the data were processed

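The deposited values are raw whole-number read counts for each gene, in a separate table for every library. The tools named in the submitters' processing notes are STAR 2.7.11b, HTSeq 2.0.5, Trim Galore 0.6.10, FastQC 0.12.1 and edgeR 3.40.2, with build GRCg7b. Libraries were poly(A)-selected and directional, per the labels' protocols. The counter's summary lines, with 14.6 to 18.8% of reads outside any gene, were left out of library sizes and tests.

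From the counts, filterByExpr kept 13000 of 25466 genes, TMM factors scaled the libraries, and edgeR 4.0.16 in R 4.3.3 fitted 8 group means over the 24 libraries together (glmQLFit and glmQLFTest, 16 residual degrees of freedom). P-values were two-sided and Benjamini-Hochberg adjusted over all 13000 genes, with a call at an adjusted p under 0.05. Standard errors come from the F statistic. Alternatives used DESeq2 1.42.0 and limma 3.58.1. The fit was tested on simulated data with independent libraries and no replicate effect, so that test does not cover the pairing described below. Within groups every pair of libraries differed beyond sampling noise (chi-square per degree of freedom 3.08 to 54.4).

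Same-numbered mock libraries deviated together across times (correlations 0.116 to 0.375). The highest of these, 0.313 to 0.375, were those of replicate 2. The same number was the best match, except for replicate 3 from 30 min to 1 h, which was closest to replicate 1. By the data the replicate numbers therefore largely pair the mock libraries. In knockdown cells the correlations were -0.021 to 0.148 and between genotypes -0.130 to 0.127. These were low. The main fit has no replicate term, so its mock time changes do not use the pairing seen in mock cells. It also counts same-numbered mock libraries as independent in the knockdown differences averaged over the 4 times. The SE, intervals and p-values of those averages may therefore overstate the precision. With a replicate block 699 genes were called at 6 h in mock cells, against 282 in the main fit. In knockdown cells the same number was still the best match, except for replicate 2 from 0 h to 30 min and replicate 1 from 0 h to 6 h. Whether the replicate numbers pair the knockdown libraries was therefore not settled. The text names the 5 genes and IRF9, up to 4 called genes per list, the closest patterns and the neighbours of HELZ2. Other genes named for their extreme or reference values were chosen after their values were seen. The members, lists and tests were chosen with earlier results of these data known.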

Additional observations from a re-analysis of the deposited data

How the results depend on the processing

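The number of the 5 genes called in the comparisons that did not choose them was 0 in all 97 comparisons refitted with another setting (scaling by DESeq2 size factors, no filter, DESeq2, limma voom, only the groups compared, a replicate block, or no mock replicate 2 libraries) and in all 120 that left out 1 library. In the main fit these comparisons called 0% to 0.0231% of all genes, so 0 of 5 says little about the 5 genes. Among them is the genotype difference in the 6 h change, which is not independent of the choice of HELZ2. The replicate block was set within each genotype for changes over time and for their difference between genotypes. For knockdown against mock it was set by replicate number across genotypes, where same-numbered libraries showed little likeness. With the first block the change of HELZ2 at 6 h was 3.30 in mock and 2.90 in knockdown cells, and the difference between genotypes in that change -0.40. With the second the average knockdown difference of HELZ2 was 0.13. Neither block changed a call of the 5 genes. Over these settings the 6 h change of HELZ2 was 2.88 to 2.90 in knockdown cells, the difference between genotypes in that change -0.41 to -0.25, its knockdown minus mock difference at 6 h -0.072 to -0.061 and its average knockdown difference 0.05 to 0.15. Of 555 log2 values of the 5 genes 552 moved by no more than a set margin, and 25 changed sign. That margin was the SE, or, for the 6 h against 0 h changes, the pooled SD of log2 CPM within groups. The average difference of PARP9 turned to -0.031 without the 4 mock replicate 2 libraries. Of 660 values from fits that left out 1 library 646 stayed within that margin, and 80 changed sign. Beyond the margin, 7 values moved without a change of sign and 7 changed sign. For HELZ2 these ran from -0.37 to 0.20 (mock, 1 h minus 30 min), -0.43 to 0.17 (genotype difference in the 1 h change), -0.21 to 0.18 (knockdown, 1 h minus 30 min) and -0.057 to 0.33 (knockdown minus mock at 30 min). For ZNFX1 they ran from -0.084 to 0.11 (mock, 1 h minus 30 min), -0.19 to 0.021 (knockdown, 1 h minus 0 h) and -0.11 to 0.11 (knockdown minus mock at 0 h). The libraries behind these turns were mock 1 h replicate 1, knockdown 30 min replicate 2, mock 30 min replicate 3 and knockdown 0 h replicate 3. The cause was not tested. Counts of all called genes at 6 h ran from 148 to 699 in mock and from 122 to 835 in knockdown cells, and knockdown against mock at 30 min from 0 to 758, the last without mock 30 min replicate 3. Where a printed interval includes 0, the fit with 3 libraries a group does not tell a difference inside it from none.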
